A study of Mus musculus with 15 samples.

Results

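The renin-angiotensin system genes described here are the 8 genes Ren1, Agt, Ace, Agtr1a, Enpep, Mme, Atp6ap2 and Lnpep, chosen by name for their role in the pathway, out of 13923 genes with a transcript listed for every mouse. Expression was measured by RNA-seq of kidney tissue from 15 male C57BL/6 mice in 3 groups of 5. Control mice received saline from a subcutaneous osmotic pump, Ang II mice received angiotensin II at 500 ng/kg/min, and Ang II + QDG mice received the same infusion together with Qingda granule at 1.145 g/kg/day by mouth. Treatment lasted 28 days, and the Control and Ang II groups were given water in place of the granule. Qingda granule (QDG) is a preparation of the herbs Gastrodia elata, Uncaria rhynchophylla, Scutellaria baicalensis and Nelumbo nucifera. As a model, the infusion supplies the end product of the pathway from outside, so that every Ang II and Ang II + QDG mouse carried a constant external dose of the peptide that these genes make, sense or degrade, and no group received QDG without Ang II.

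The renin-angiotensin system is a proteolytic cascade that controls blood pressure and salt balance. Renin, secreted by juxtaglomerular cells at the entrance of the glomerulus, cuts angiotensinogen to angiotensin I, and angiotensin-converting enzyme trims angiotensin I to the active octapeptide angiotensin II. Angiotensin II acts on the kidney mainly through the type 1 receptor and is broken down by peptidases on the brush border of the proximal tubule, and in the intact animal it feeds back on renin. These steps order the account that follows: substrate (Agt), enzymes that form the peptide (Ren1, Ace), receptors (Agtr1a, Atp6ap2) and peptidases (Enpep, Lnpep, Mme).

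RefSeq promoter sequences on GRCm38.p6 were found for 7 of the 8 genes, as 10 windows of 250 bases before a start. The windows of Agt and of the start of Ace that the measured long transcript uses are shown because these are the genes with an unadjusted p under 0.05 below, and the second Ace start is shown because it marks the transcript that was listed for no mouse. For Ren1 only the last 30 bases are printed, since the annotated transcript begins inside its window. Capitals mark matches on either strand to the TATA box, given by the letters TATAAA, the CCAAT box, whose letters are its name, and the GC box, given by GGGCGG.
Agt, chr8:124569707-124569956, minus strand: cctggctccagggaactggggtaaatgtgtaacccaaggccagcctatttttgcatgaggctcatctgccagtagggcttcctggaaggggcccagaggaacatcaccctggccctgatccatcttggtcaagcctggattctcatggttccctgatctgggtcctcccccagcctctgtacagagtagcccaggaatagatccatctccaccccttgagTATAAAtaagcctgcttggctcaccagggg
Ren1, chr1:133350644-133350673, plus strand: gTATAAAagaaggctcagggggtctgggct
Ace, first start, chr11:105967698-105967947, plus strand: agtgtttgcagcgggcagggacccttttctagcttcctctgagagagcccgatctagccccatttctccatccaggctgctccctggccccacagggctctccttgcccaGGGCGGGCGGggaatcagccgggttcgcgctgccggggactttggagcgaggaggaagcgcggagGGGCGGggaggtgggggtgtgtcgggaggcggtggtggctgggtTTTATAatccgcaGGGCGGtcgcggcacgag
Ace, second start, chr11:105974939-105975188, plus strand: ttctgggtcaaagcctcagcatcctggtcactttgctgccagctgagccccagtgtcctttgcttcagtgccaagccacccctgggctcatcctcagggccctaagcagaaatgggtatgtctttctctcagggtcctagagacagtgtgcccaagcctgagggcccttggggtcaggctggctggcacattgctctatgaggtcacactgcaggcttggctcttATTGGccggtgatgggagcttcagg

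A TATA box match began 30 bases before the start in Agt, 29 in Ren1 and 31 in the first window of Ace. In Enpep, whose window is not shown, it began 52 bases before the start. Of the 10 windows, 4 held TATAAA, 5 held CCAAT and 6 held GGGCGG on either strand. Among 32851 RefSeq promoter windows of the same length, 12.4% held TATAAA on either strand, 33.8% held CCAAT and 32.7% held GGGCGG. The first Ace window held 4 overlapping or separate GC box matches and the second none. The cAMP response element TGACGTCA was in none of the 10 windows and in 1.55% of all windows. These matches describe the letters of the windows, and no binding was measured.

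Each value is in fragments per kilobase of transcript, scaled by sequencing depth (FPKM), summed over the annotated transcripts of a gene, so that levels can be compared between genes per length. The files implied totals from 68900000 to 81300000 reads per mouse, and the lowest count behind any member in any mouse was about 887 reads (Agtr1a), for which counting error alone is 3.36%. Mitochondrial transcripts held 18.5 to 20.7% of all FPKM in Control, 15.4 to 16.0% in Ang II and 16.9 to 19.8% in the Ang II + QDG mice, and the median gene lay 0.08 higher on the log2 scale in Ang II than in Control mice. Proximal tubule markers were abundant in every mouse (6 of 6 listed, summed FPKM 3099 to 4306) and 4 of 5 adrenal cortex markers were not listed for every mouse. In bulk tissue, fewer cells of a type and less RNA per cell cannot be told apart.

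Over the 15 mice the mean level fell in the order Atp6ap2 (53.4 FPKM), Enpep (51.5), Ace (43.7), Ren1 (30.7), Agt (28.1), Mme (24.2), Agtr1a (17.8) and Lnpep (9.45). The ranges of all neighbours in that order overlapped over the 15 mice. Within Control mice Enpep and Ren1 were the one neighbouring pair whose ranges did not overlap, and Ace was the highest member there with a mean of 54.8 FPKM, whereas Atp6ap2 and Enpep both averaged above it in the other groups.

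**Figure D1:**
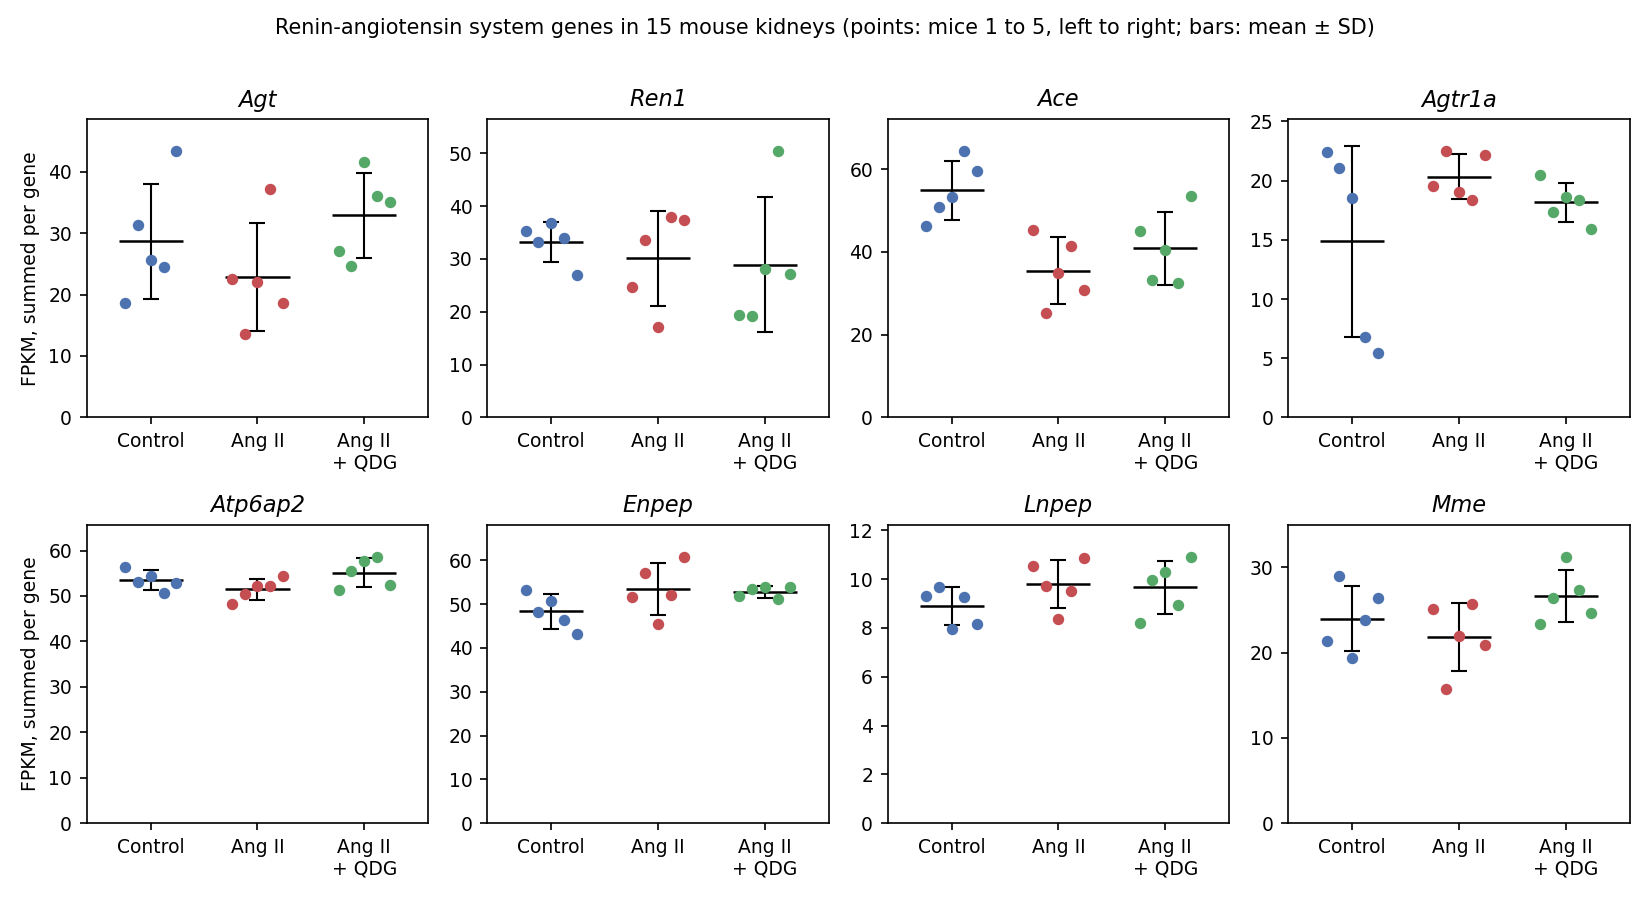
Level of each of the 8 genes (y axis, summed FPKM) in every mouse of the 3 groups (points, mice 1 to 5 from left to right; line and bars, mean ± SD, n = 5). Ace is the gene whose Ang II mice all lie below all Control mice, and Agtr1a shows Control mice 4 and 5 apart at 6.81 and 5.48 FPKM.

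The comparison of Ang II with Control asks how a month of infused angiotensin II altered the expression of the pathway in the kidney. Ace, the converting enzyme, fell by 35.3% in its mean and was the 1 member of 8 called at an adjusted p under 0.05 (limma over 12359 genes, Benjamini-Hochberg), where 5.95% of all genes tested were called and 0.995% were called lower. The share called lower was 2.18% with median scaling and 2.15% with quantile normalization, where Ace was called as well (adjusted p 0.0295 and 0.0287). The Ace call was lost under 4 of 13 other processing choices (adjusted p 0.0502 to 0.178) and in 7 of 15 fits without 1 mouse. Ace was also the 1 member whose groups did not overlap, against 7.92% of all genes, or 1.42% with Ang II lower. At the study's own threshold, a fold change of at least 2 with an unadjusted p under 0.05, 0 members were called in this or the other comparisons, against 1.04% of genes here, 0.809% for Ang II + QDG against Ang II and 0.72% for Ang II + QDG against Control. The median log2 fold change of the members was -0.09, beside 0.08 over all genes, and 3 of the 8 were positive, beside 64.8% of all genes.

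For Ang II + QDG against Ang II, which asks what the granule changed on top of the infusion, 0 of 8 members were called by limma, where 1.81% of all genes were. At an unadjusted p under 0.05 the count was 1 (Agt), beside 16.4% of all genes, and the groups of all 8 overlapped, where 5.0% of all genes did not. For Ang II + QDG against Control, 0 of 8 were called by limma, beside 0.129% of all genes, and 1 (Ace) had an unadjusted p under 0.05, beside 14.4%. No member separated these groups either, against 3.64% of all genes. The median of the members was 0.04 and 0.12 on the log2 scale in these comparisons, and that of all genes -0.02 and 0.06. Comparisons share groups of mice, so their values are set side by side below and not against each other.

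**Figure D2:**
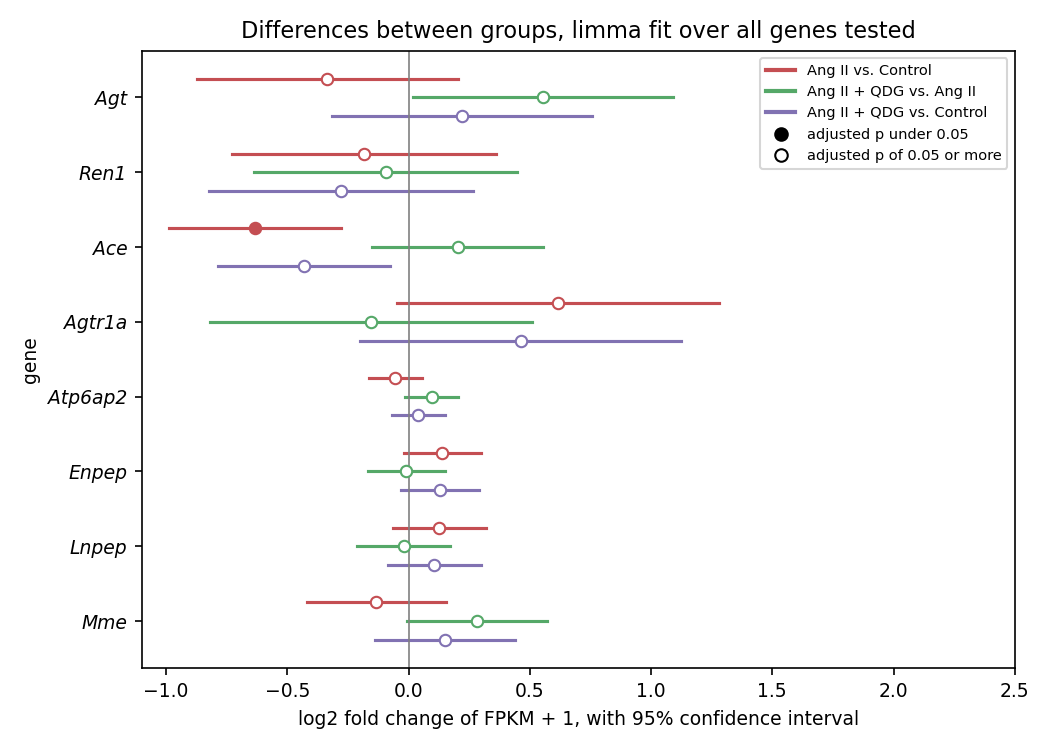
log2 fold change of FPKM + 1 (x axis) with its 95% confidence interval for each gene (y axis) in the 3 comparisons, each in its own colour, from limma over all 12359 genes tested. The filled point, Ace in Ang II vs. Control at -0.63, is the one with an adjusted p under 0.05, and the intervals of Atp6ap2 are the narrowest.

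Agt encodes angiotensinogen, the only known substrate of renin, which the proximal tubule of the kidney makes in addition to the liver. Its levels were 18.6, 31.4, 25.6, 24.5 and 43.4 FPKM in Control mice 1 to 5. In Ang II mice they were 22.6, 13.7, 22.1, 37.2 and 18.6 FPKM, and in Ang II + QDG mice 27.0, 24.6, 41.6, 36.0 and 35.1 FPKM. All 3 groups overlapped, with the highest Control mouse above every other mouse. Means were 28.7 ± 9.37 FPKM (SD, n = 5) for Control mice, 22.8 ± 8.80 after Ang II and 32.9 ± 6.96 after Ang II + QDG. Ang II + QDG differed from Ang II by 0.55 on the log2 scale (SE 0.25, 95% interval 0.02 to 1.09), with an adjusted p of 0.287 by limma, so it did not pass the test. Against Control, the Ang II group differed by -0.33 (interval -0.87 to 0.20, limma adjusted p 0.465). The 4 hepatocyte markers were listed in every mouse at a summed 81.8 to 140 FPKM, and 0 of the 3 that reached the minimum for testing were called. Of these Alb, albumin, named here after its values were seen, differed by -0.47 in Ang II against Control (limma adjusted p 0.0542, 4 of 5 Ang II mice below every Control mouse) and by 0.31 in Ang II + QDG against Ang II (limma adjusted p 0.267), with the same signs as Agt. Of the other tested markers of this list, Serpina1a differed by 0.17 and 0.34 in these comparisons (limma adjusted p 0.885 and 0.802). Its first sign was opposite to those of Alb and Agt. Ttr differed by -0.32 and 0.08 (limma adjusted p 0.220 and 0.844). The part of these markers in the Agt values was not tested.

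Ren1 encodes renin, the rate-limiting enzyme of the cascade, which C57BL/6 mice carry as a single gene. Its levels were 35.3, 33.2, 36.8, 33.9 and 26.9 FPKM in Control mice 1 to 5. They were 24.7, 33.7, 17.2, 37.9 and 37.3 FPKM in Ang II mice, and 19.4, 19.1, 28.1, 50.4 and 27.2 FPKM in Ang II + QDG mice. The Control mice lay close together, whereas the Ang II mice lay on both sides of them and mouse 4 of Ang II + QDG was the highest of all 15. The coefficient of variation was 11.4% for Control mice, 29.8% after Ang II and 44.2% after Ang II + QDG, and a difference in spread was not tested. Ang II differed from Control by -0.18 on the log2 scale (SE 0.25, interval -0.73 to 0.36), with an adjusted p of 0.719 by limma. Ang II + QDG differed from Ang II by -0.09 (interval -0.64 to 0.45, limma adjusted p 0.898) and from Control by -0.28 (interval -0.82 to 0.26, limma adjusted p 0.656). A change of renin mRNA larger than these bounds is outside the interval, while smaller ones in either direction were not resolved with 5 mice per group.

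Renin is made by few cells. Of 7 juxtaglomerular and mural markers, 3 were called in Ang II against Control (1 lower and 2 higher), 1 in Ang II + QDG against Ang II (higher) and 0 in Ang II + QDG against Control. Akr1b7, an aldo-keto reductase known as a marker of renin cells, was 1.32, 1.58, 2.14, 1.42 and 1.349 FPKM in Control mice 1 to 5. It was 0.867, 0.670, 0.937, 1.24 and 0.822 FPKM in Ang II mice, and 2.07, 1.45, 1.76, 2.304 and 2.10 FPKM in Ang II + QDG mice. Every Ang II mouse lay below every mouse of both other groups. Akr1b7 fell in Ang II against Control by 0.42 on the log2 scale (SE 0.12, limma adjusted p 0.0462) and rose in Ang II + QDG against Ang II by 0.62 (SE 0.12, limma adjusted p 0.0222). It is near the minimum of 1 FPKM for testing, and with a pseudocount of 0.01 the differences were -0.78 and 1.10. Leaving out 1 mouse at a time moved its adjusted p between 0.0376 and 0.106 in the first comparison, and the call held in only 3 of 15 fits, those without Ang II mouse 4 and without Ang II + QDG mouse 2 or 4. In the second comparison the range was 0.0224 to 0.0588, with the call lost without Ang II mouse 2 (0.0588) or 5 (0.0511), or Ang II + QDG mouse 4 (0.0505) or 5 (0.0516). The first call of Akr1b7 was also lost with only the 2 groups fitted (0.0794), protein-coding transcripts only (0.0607), the single highest transcript (0.0681) and without Control mice 4 and 5 together (0.0876), and the second with only the 2 groups fitted (0.0569). The Ren1 values above overlapped between all groups. Of the other 6 mural markers, Pdgfrb and Tagln rose in Ang II against Control (log2 fold change 1.13 and 0.59, limma adjusted p 0.0467 and 0.0325), and Pdgfrb was listed at 0 and 0.00227 FPKM in 2 Control mice. The size of its difference therefore rests on the pseudocount, being 2.52 with 0.1 and 3.82 with 0.01, where it was not called. Without 1 mouse at a time their adjusted p ranged from 0.0297 to 0.109 and from 0.0164 to 0.0726, with the calls lost in 11 and 7 of 15 fits, and Pdgfrb was called under 3 of 12 other processing choices. The Tagln call held under 8 of 13 and was lost with the 2 groups alone (adjusted p 0.0801), median scaling (0.0687), quantile normalization (0.0653), the single highest transcript (0.0537) and without Control mice 4 and 5 together (0.0907). The summed level of the 7 markers ranged from 53.6 to 70.5 FPKM in Control, 59.4 to 119 in Ang II and 75.2 to 87.2 in the Ang II + QDG mice, and its part in the Ren1 values was not tested.

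Ace encodes angiotensin-converting enzyme, a peptidyl-dipeptidase of endothelium and proximal tubule brush border that forms angiotensin II and also inactivates bradykinin. Its levels were 46.2, 50.9, 53.3, 64.4 and 59.4 FPKM in Control mice 1 to 5. They were 45.3, 25.3, 34.9, 41.3 and 30.7 FPKM in Ang II mice and 44.9, 33.1, 40.4, 32.5 and 53.5 FPKM in Ang II + QDG mice. Every Ang II mouse was below the lowest Control mouse, by a margin of less than 1 FPKM between the closest mice, and 4 of 5 Ang II + QDG mice were also below it. Means were 54.8 ± 7.15 FPKM (SD, n = 5) for Control mice, 35.5 ± 8.03 after Ang II and 40.9 ± 8.77 after Ang II + QDG. Ace fell in Ang II against Control by 0.63 on the log2 scale (SE 0.16, interval -0.99 to -0.28), with a limma adjusted p of 0.0381. The Ang II + QDG group differed from Ang II by 0.20 (interval -0.15 to 0.56, limma adjusted p 0.589) and from Control by -0.43 (interval -0.78 to -0.08, limma adjusted p 0.258).

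The adjusted p of Ace lay near the threshold. The call was lost without Control mouse 1 (adjusted p 0.0528), 3 (0.0741), 4 (0.0815) or 5 (0.0776) and without Ang II mouse 2 (0.0848), 3 (0.0624) or 5 (0.0895), while the log2 fold change stayed between -0.73 and -0.52 over all 15 such fits. The Ace call was also lost with only the 2 groups fitted (0.0548), protein-coding transcripts only (0.0502), the single highest transcript (0.0832) and without Control mice 4 and 5 together (0.178). With mitochondrial transcripts left out of the scaling, the log2 fold change was -0.65 with an adjusted p of 0.0372. Proximal tubule markers (0 of 6 called, summed FPKM 3099 to 3260 in Control and 3183 to 4306 in Ang II) and endothelial markers (0 of 4 called, 36.1 to 61.9 and 37.3 to 61.0) did not pass the test in this comparison. The podocyte marker Podxl rose in Ang II against Control (log2 fold change 0.35, limma adjusted p 0.0277), a call lost in 5 of 15 fits without 1 mouse (adjusted p 0.018 to 0.0695), and its part in the Ace values was not tested. The Podxl call was also lost with median scaling (0.0947), quantile normalization (0.121), scaling without mitochondrial transcripts (0.0524) and without Control mice 4 and 5 together (0.11). Of the markers tested by limma for thick ascending limb and distal tubule (4 of 4 tested), collecting duct (4 of 4), leukocytes (4 of 6), hepatocytes (3 of 4), adipocytes (3 of 4) and adrenal cortex (1 of 5), 0 were called in any comparison. Together with the proximal tubule and endothelial lists, 13 of 29 tested markers had an unadjusted p under 0.05 in at least 1 comparison. In the lists with a call, such markers were 5 of 7 (juxtaglomerular and mural), 3 of 4 (podocyte) and 4 of 4 (erythroid). Of all genes tested, 22.7%, 16.4% and 14.4% had one in the 3 comparisons taken singly. The share of all genes with one in at least 1 comparison was not counted. Of the 4 erythroid markers 1 (Hba-a1) was called, higher in Ang II + QDG than in Control (log2 fold change 1.17, limma adjusted p 0.0257). All 4 were higher there with an unadjusted p under 0.05 by limma, and the median log2 fold change of the list was 1.19. In Ang II against Control 3 of the 4 had such a p, with a median of 0.93. The Hba-a1 call was lost in 5 of 15 fits without 1 mouse (adjusted p 0.0537 to 0.0822), with only the 2 groups fitted (0.0876) and without Control mice 4 and 5 together (0.105).

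The gene sum of Ace joins the transcripts ENSMUST00000001963 and ENSMUST00000132280, which begin at positions 105967945 and 105971323 of chromosome 11. The first starts at the first RefSeq start shown above and averaged 17.8 FPKM, or 40.8% of the sum, and the second, which begins within the gene and averaged 25.9 FPKM, made up the other 59.2%. Both shared the direction of the gene: -0.58 on the log2 scale (limma adjusted p 0.0997) for the first and -0.65 (limma adjusted p 0.113) for the second in Ang II against Control, and neither passed the test across 28812 transcripts, where 0.691% were called. The share of the second transcript was 58.4 ± 3.76% (SD, n = 5) in Control, 57.4 ± 4.46% in Ang II and 61.4 ± 4% under Ang II + QDG, differing by no more than the SD within groups. ENSMUST00000001964, the shorter transcript from the second start, which is known from the testis, was listed for no mouse. How reads over shared exons were assigned to transcripts is not given in the sources used here. The sum is less dependent on that step than the parts.

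**Figure D3:**
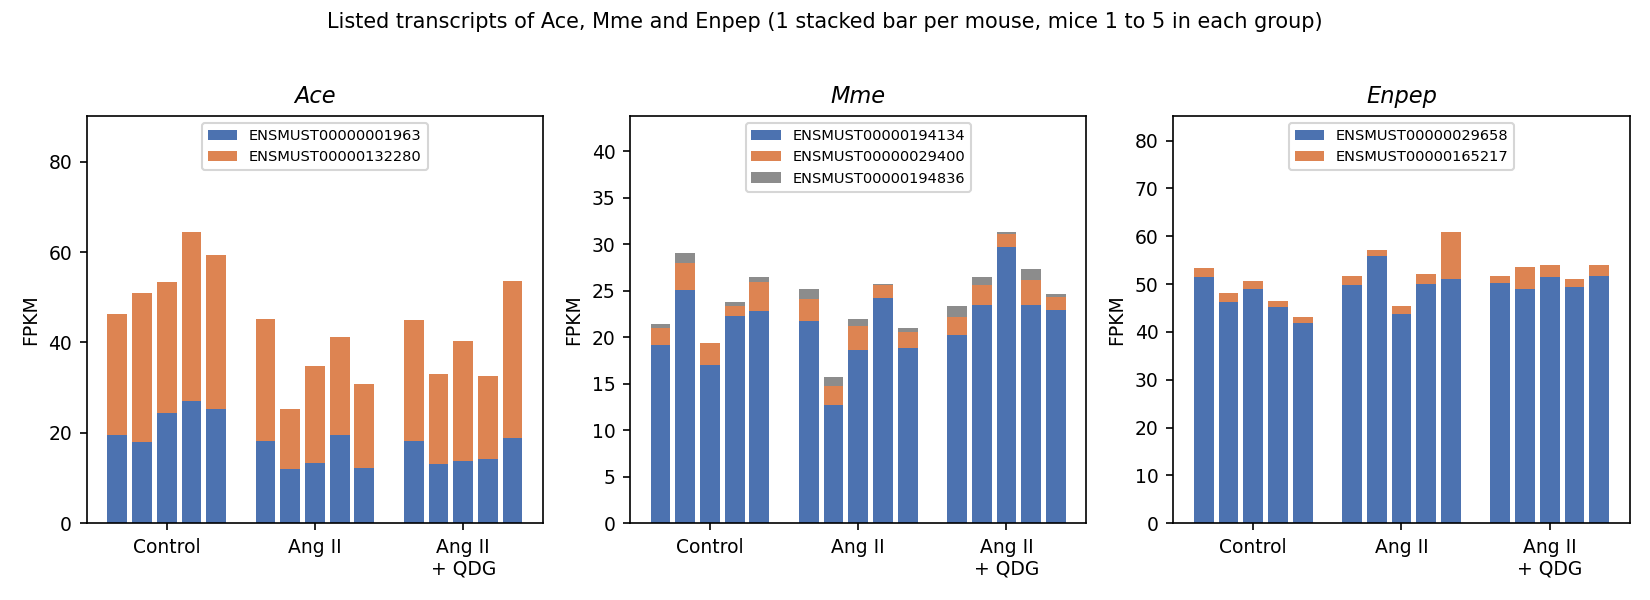
Stacked FPKM (y axis) of the listed transcripts of Ace, Mme and Enpep in each mouse (bars, mice 1 to 5 of each group in order). Both Ace transcripts are lower in most Ang II mice, 1 transcript holds 88.9% of Mme, and the retained-intron transcript of Enpep reaches 9.78 FPKM in Ang II mouse 5.

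Agtr1a encodes the main type 1 receptor for angiotensin II in the rodent kidney. Its levels were 22.4, 21.1, 18.6, 6.81 and 5.48 FPKM in Control mice 1 to 5. They were 19.5, 22.5, 19.0, 18.4 and 22.2 FPKM in Ang II mice and 20.5, 17.4, 18.6, 18.4 and 16.0 FPKM in Ang II + QDG mice. Control mice 4 and 5 were low and the other 13 mice lay between 16.0 and 22.5 FPKM. Ang II mice differed from Control mice by 0.62 on the log2 scale (SE 0.31, interval -0.05 to 1.28, limma adjusted p 0.258), and without Control mice 4 and 5, an alternative added after their values were seen, the value was -0.02. The value for Ang II + QDG against Control, 0.46 with all mice (limma adjusted p 0.517), was -0.18 without them. Ang II + QDG differed from Ang II by -0.15 (interval -0.82 to 0.51, limma adjusted p 0.856). Almost all of the gene (97.9%) was 1 transcript, ENSMUST00000066412, with 6.67 and 5.17 FPKM in these Control mice.

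The genes whose pattern over the 15 mice was most like that of Agtr1a were Shoc2 (Pearson r 0.908 of log2 values) and Paxbp1 (0.895). These values are a description, because all genes of a mouse share its library and depth. Both were low in the same Control mice: Shoc2 was 9.18, 9.39, 8.88, 1.27 and 0.0128 FPKM in Control mice 1 to 5, against 4.88 to 12.3 FPKM in the other groups. The corresponding values of Paxbp1 were 3.08, 2.37, 3.34, 0.791 and 1.13 FPKM, against 2.26 to 3.90 FPKM. Both genes were picked for their likeness over these same mice, low values included, so the shared low values support nothing further.

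Atp6ap2 encodes the (pro)renin receptor, which is also an accessory subunit of the vacuolar proton pump. It was 50.6 to 56.4 FPKM in Control, 48.1 to 54.3 in Ang II and 51.3 to 58.6 in the Ang II + QDG mice. The groups overlapped throughout, and the highest mouse exceeded the lowest by 1.22-fold. Its SD within groups, 0.0687 on the log2 scale, was smaller than that of all but 2.23% of genes tested. Differences were accordingly bounded closely: -0.05 for Ang II against Control (interval -0.16 to 0.06, limma adjusted p 0.575), 0.10 for Ang II + QDG against Ang II (interval -0.01 to 0.21, limma adjusted p 0.379) and 0.04 against Control (interval -0.07 to 0.15, limma adjusted p 0.761).

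Enpep encodes aminopeptidase A, which removes the first residue of angiotensin II to give angiotensin III. It was 43.1 to 53.3 FPKM in Control, 45.4 to 60.8 in Ang II and 51.1 to 53.9 in the Ang II + QDG mice. The Ang II + QDG mice lay within the range of the Ang II mice, and the SD was 5.87 FPKM in Ang II and 1.34 under Ang II + QDG. Ang II differed from Control by 0.14 on the log2 scale (interval -0.02 to 0.30, limma adjusted p 0.292). Ang II + QDG differed from Ang II by -0.01 (interval -0.17 to 0.15, limma adjusted p 0.969), a sign that turned to positive under 5 other settings. Ang II mouse 5, the highest, also had ENSMUST00000165217, a transcript with a retained intron, at 9.78 FPKM in Ang II mouse 5 and 1.349 to 2.05 FPKM in the other 4 Ang II mice. The full-length transcript ENSMUST00000029658 alone ranged from 43.7 to 55.8 FPKM in Ang II mice.

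Lnpep encodes insulin-regulated aminopeptidase, the binding site of angiotensin IV. It was the lowest member, at 7.96 to 9.70 FPKM in Control, 8.38 to 10.9 in Ang II and 8.21 to 10.9 in the Ang II + QDG mice, from 1 transcript. All groups overlapped, and the intervals of the 3 differences lay between -0.21 and 0.32 on the log2 scale, with limma adjusted p-values of 0.434, 0.944 and 0.621.

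Mme encodes neprilysin, an endopeptidase of the proximal tubule brush border that cuts angiotensin I to angiotensin 1-7 and degrades natriuretic peptides. It was 19.4 to 29 FPKM in Control, 15.8 to 25.7 in Ang II and 23.4 to 31.3 in the Ang II + QDG mice. In Ang II + QDG, 3 of 5 mice lay above the highest Ang II mouse. The difference of 0.28 on the log2 scale (SE 0.13, interval -0.005 to 0.57) had an adjusted p of 0.314 by limma and did not pass the test. The transcript ENSMUST00000194134 held 88.9% of the sum.

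The members differed in how much they varied among mice of 1 group. The within-group SD on the log2 scale was 0.0687 for Atp6ap2, 0.115 for Enpep and 0.133 for Lnpep. It was 0.221 for Mme, 0.276 for Ace, 0.423 for Agt, 0.429 for Ren1 and 0.523 for Agtr1a. The value of Agtr1a rests on Control mice 4 and 5, without which it was 0.128, against 0.406 for Agt and 0.458 for Ren1. Against all genes tested, 84.6% had a smaller SD than Agtr1a (21.1% without those 2 mice), 77.8% than Ren1 and 77.3% than Agt.

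The genes most like the other members over the 15 mice are given as a description, with Pearson's r of log2 values and no test. Ace was closest to Gm11992 (0.914) and to Mep1a (0.908), which encodes the brush border protease meprin A. Agt was closest to Rrm1 (0.910) and to Acadl (0.899), a fatty acid dehydrogenase. Mme was closest to Mettl7a3 (0.953) and Ceacam2 (0.943), and Ren1 to Cdc16 (0.773) and 2510046G10Rik (0.764). Enpep was closest to Kdr (0.876) and Smg6 (0.832), Atp6ap2 to Emb (0.832) and Eef1a1 (0.797), and Lnpep to Stc1 (0.868) and Slc7a6 (0.855). Each pair holds the 2 largest r among 12358 candidates in the same libraries.

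Of 50 further genes of the pathway, 38 were tested, and 0 were called by limma in any comparison. At an unadjusted p under 0.05, 3 were higher and 3 lower in Ang II against Control, 5 and 3 in Ang II + QDG against Ang II, and 3 and 1 in Ang II + QDG against Control, beside 22.7%, 16.4% and 14.4% of all genes. Their median log2 fold change was 0.08, 0.03 and 0.10 in these comparisons. The receptors Agtr1b, Agtr2, Mas1 and Mrgprd had no transcript listed for every mouse, and so no value of them was tested.

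Among peptidases, Klk1, tissue kallikrein, which releases kinins, was 1425 to 1886 FPKM in Control and 1918 to 3141 in Ang II mice without overlap. Its log2 fold change was 0.54 with a limma adjusted p of 0.0818, and it was called under 1 of 13 other processing choices, quantile normalization (0.65, adjusted p 0.0374), over which the value ranged from 0.45 to 0.65 and the adjusted p up to 0.23. Ctsb, cathepsin B, differed by -0.15 in Ang II against Control (limma adjusted p 0.0716) and by 0.14 in Ang II + QDG against Ang II (limma adjusted p 0.123). The first Ctsb difference was -0.24 with an adjusted p of 0.0257 under median scaling, -0.23 with 0.0135 under quantile normalization and -0.16 with 0.0313 when mitochondrial transcripts were left out of the scaling. The second was 0.24 with 0.0240 under quantile normalization. Dpp3, an aminopeptidase that degrades angiotensin II, was listed at 10.7, 16.2, 0, 17.4 and 0 FPKM in Control mice 1 to 5. It was listed at 22.5, 22.3, 16.9, 22.4 and 21.7 FPKM in Ang II mice, and at 0, 19.2, 0, 0 and 0 FPKM in Ang II + QDG mice. An exact 0 beside such levels can be a failed estimate of the transcript, so no fold change is given for this gene.

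Among receptor partners, Arap1, which binds the type 1 receptor on its way to the membrane, was 1.46, 5.52, 1.41, 1.24 and 1.11 FPKM in Control mice 1 to 5. It was 7.60, 3.08, 5.07, 7.38 and 6.37 FPKM in Ang II mice, and 6.42, 1.505, 1.30, 1.10 and 1.82 FPKM in Ang II + QDG mice. Control mouse 2 and Ang II + QDG mouse 1 stood within the range of the Ang II mice. The log2 fold change was 1.23 for Ang II against Control (SE 0.38, limma adjusted p 0.069), and it did not pass the test. The adjusted p was 0.0195 without Control mouse 2, 0.0316 without Ang II + QDG mouse 1 and 0.0409 with array weights, the 1 of 13 other processing choices that gave a call. With the single highest transcript of each gene it was 0.438, at a log2 fold change of 0.50. Ang II + QDG differed from Ang II by -1.14 (limma adjusted p 0.137), with an adjusted p of 0.0373 without Ang II + QDG mouse 1 and a call under 0 of 13 other processing choices. With the single highest transcript the difference was -0.61 (limma adjusted p 0.397). Gna12, a G protein subunit, differed by -0.30 in Ang II against Control (limma adjusted p 0.201), and Arrb2, an arrestin, by 0.44 in Ang II + QDG against Control (limma adjusted p 0.165), or 0.066 with the single highest transcript (0.932). The Gna12 value was -0.16 without Ang II mouse 3 (limma adjusted p 0.325).

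Cltrn, collectrin, a membrane protein of the proximal tubule, was 1003 to 1150 FPKM in Control and 821 to 987 in Ang II mice without overlap, with a log2 fold change of -0.23 and a limma adjusted p of 0.0566. Cltrn passed the test under median scaling (-0.32, adjusted p 0.0285), quantile normalization (-0.23, 0.0478), scaling without mitochondrial transcripts (-0.25, 0.0269) and a minimum of 5 FPKM (-0.23, 0.045). It also passed without Control mouse 2 (adjusted p 0.0432) or Ang II + QDG mouse 3 (0.0452). Of the partners of the (pro)renin receptor, Fzd8 and Lrp6 differed between Ang II + QDG and Ang II by -0.15 and 0.21, with limma adjusted p-values of 0.221 and 0.212. In the set that controls renin cells, Notch3 differed by 0.31 in Ang II against Control (limma adjusted p 0.0903, or 0.0252 without Control mouse 2) and by 0.38 in Ang II + QDG against Control (limma adjusted p 0.1301, or 0.0408 without Control mouse 2). Gja5, the gap junction protein connexin 40, differed by 0.52 in Ang II + QDG against Ang II (limma adjusted p 0.2501). Gja5 was 0.0418 FPKM in Ang II mouse 5 and 0.933 to 2.26 FPKM in the other Ang II mice, and its difference was 1.44 with a pseudocount of 0.01 (limma adjusted p 0.364). Adcy6 differed by 0.31 in Ang II + QDG against Control (limma adjusted p 0.335), or 0.00065 with the single highest transcript. Hsd11b2, which protects the mineralocorticoid receptor from glucocorticoids, differed by 0.32 in Ang II + QDG against Ang II (limma adjusted p 0.143).

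**Figure D4:**
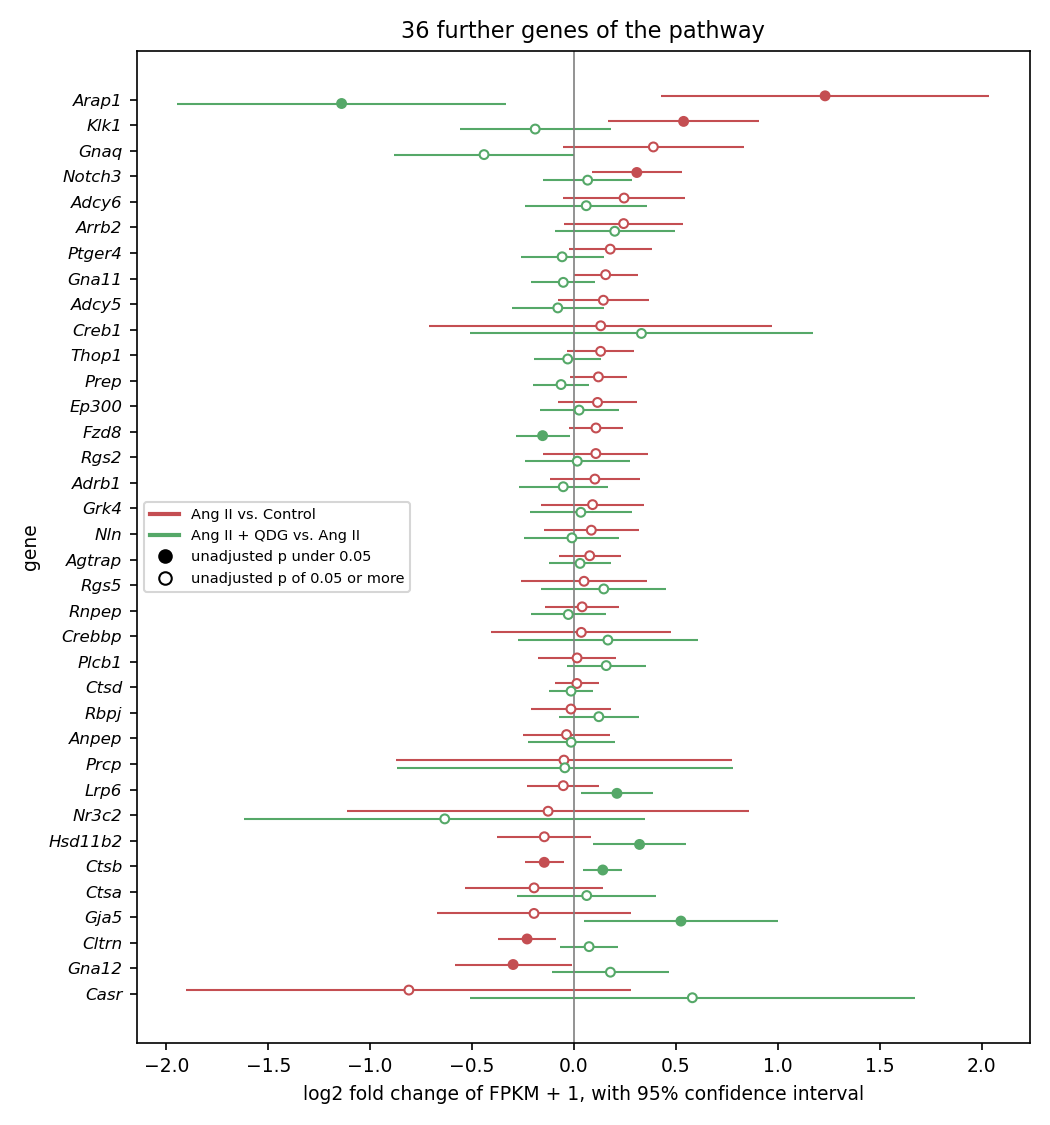
log2 fold change of FPKM + 1 (x axis) with its 95% confidence interval for 36 of the 38 further genes tested (y axis), for the infusion (Ang II vs. Control, red) and for the granule (Ang II + QDG vs. Ang II, green). Of the others, Dpp3 is left out because it was listed at 0 in 6 mice. Filled points have an unadjusted p under 0.05, and 0 genes had an adjusted p under 0.05.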

How the data were processed

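Kidney RNA of 15 mice was depleted of ribosomal RNA and sequenced as paired ends on an Illumina HiSeq. The study's methods also name a poly(A) selection that the labels do not, so whether transcripts without a tail were kept is not settled here. The authors deposited FPKM values per transcript for each mouse, annotated (Ensembl) and assembled. The submitters' processing notes name mm10 and limma; aligner, assembler and annotation are not given in the sources used here. FPKM multiplied by transcript length in GENCODE M21 gave whole reads (tolerance 0.05) for 98.4 to 98.7% of values under 200 reads. The members and lists were chosen with earlier results of these data known.

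FPKM were summed per gene over annotated transcripts listed for all mice. log2(FPKM + 1) was fitted with limma 3.58.1 (R 4.3.3; lmFit, a mean per group, eBayes with trend, 12 residual degrees of freedom) over the 12359 genes reaching 1 FPKM in 5 or more mice, two-sided, Benjamini-Hochberg adjusted over all of them. Fold changes are on that scale and understate low genes. Replicates are separate mice, numbered in accession order. Named were the members, Agtr1b, Agtr2 and Mas1, and other pathway genes with unadjusted p under 0.05 in any comparison. The 2 most like genes per member and marker lists by counts were also given. Akr1b7, Pdgfrb, Tagln, Podxl and Hba-a1 are named from those lists because they were called. Alb was named after its values were seen, and Serpina1a and Ttr as the other hepatocyte markers tested. Some genes that these rules name are not reported here. The fit was tested on simulated data. Pseudocounts, filters, scalings, transcript sets, array weights, sample sets and left-out mice were varied.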

Additional observations from a re-analysis of the deposited data

Results flagged for a closer look

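In 6 of 87 groups of 5 mice examined (6.9%, where chance gives about 1 in 20), 1 mouse stood apart by Dixon's criterion, a gap to its nearest neighbour above 0.71 of the range. The criterion was applied to FPKM and not to log2 values, and its chance rate assumes normally distributed values. Ren1 was 50.4 FPKM in Ang II + QDG mouse 4, with the other 4 mice at 19.1 to 28.2 FPKM. The Ren1 gap was 0.711 of the range, barely above the criterion. The retained-intron transcript of Enpep was 9.78 FPKM in Ang II mouse 5, with the others at 1.349 to 2.05 FPKM. Arap1 was 5.52 FPKM in Control mouse 2 (others 1.11 to 1.46 FPKM) and 6.42 FPKM in Ang II + QDG mouse 1 (others 1.10 to 1.82 FPKM). Dpp3 was 16.9 FPKM in Ang II mouse 3, the lowest of its group (others 21.7 to 22.5 FPKM), and 19.2 FPKM in Ang II + QDG mouse 2, where the others were listed at 0.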

How the results depend on the processing

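No paired analysis was made, because the groups are separate mice divided at random and mouse numbers do not match mice across groups. Of the 24 member differences under 13 alternatives, 300 values kept their direction and side of the threshold, 4 lost the call and 8 changed sign. The lost calls were all Ace in Ang II against Control, which left 0 members called: with the 2 groups alone (-0.63, adjusted p 0.0548), protein-coding transcripts only (-0.63, 0.0502), the single highest transcript (-0.65, 0.0832) and Control mice 4 and 5 left out (-0.51, 0.178). Over fits without 1 mouse, 0 to 1 members were called there and the Ace value lay between -0.726 and -0.522. Signs turned for Enpep in Ang II + QDG against Ang II (0.0026 with median scaling, 0.061 with quantile normalization, 0.00857 without mitochondrial transcripts, 0.010 with protein-coding or single transcripts), for Atp6ap2 in Ang II + QDG against Control (-0.037, median scaling) and for Agtr1a without Control mice 4 and 5 (-0.025 and -0.18 against Control). Without 1 mouse, the Ang II + QDG against Ang II values of Ren1, Enpep and Lnpep reached 0.026, 0.038 and 0.031, from lows of -0.31, -0.065 and -0.070.

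Calls over all genes in Ang II against Control, 735, became 457 (2 groups), 470 (median scaling), 408 (protein-coding), 353 (single transcript) and 271 (without Control mice 4 and 5), and 338 to 798 without 1 mouse. Those in Ang II + QDG against Ang II, 224, became 58 with 2 groups and 53 to 249 without 1 mouse. Those in Ang II + QDG against Control, 16, became 4 (2 groups), 80 (transcripts of any file), 6 (protein-coding), 6 (single transcript), 62 (array weights) and 3 (without Control mice 4 and 5), and 0 to 110 without 1 mouse. Transcript calls were 29 to 359, 11 to 43 and 1 to 23 without 1 mouse, and 12 with 2 groups in the last comparison. The share of calls that were higher in Ang II against Control was 83.3%, and 42.8% with median scaling and 46.0% with quantile normalization; in Ang II + QDG against Ang II it was 29%, 38.7% and 50%. In Ang II + QDG against Control it was 75.0%, 40.0% and 53.3%. The cause was not tested.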
